A study of Mus musculus with 6 samples.

Results

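The genes described here are the matrix proteases and their inhibitors: every gene of the table whose symbol begins with Mmp, Adamts, Adamtsl or Timp followed by a digit. There were 25 of them among the 10189 genes of the table, out of 51 such genes in RefSeq. They comprised 12 of 23 Mmp genes, 7 of 19 Adamts genes, 3 of 5 Adamtsl genes and 3 of 4 Timp genes. RNA-seq of total RNA was made from primary chondrocytes, the cells of cartilage, of 5-week-old C57BL/6 mice. In 3 KO samples the mice were homozygous for the whole-body deletion of Mir34a (allele Mir34atm1.2 Mrl), bred from heterozygous carriers. In the 3 wild-type (WT) samples they carried the normal gene. All 6 received no treatment: cartilage of knee and hip was pooled, digested in collagenase at 3 mg/ml and grown in medium with 10% serum for about 1 week (growth protocol) or 10 days (design text), so the values are those of cultured cells and not of cartilage.

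Matrix metalloproteinases (MMPs) are zinc-dependent enzymes that cut collagens and other matrix proteins, most of them secreted as inactive proenzymes. ADAMTS enzymes are secreted zinc proteases with thrombospondin repeats, among them the aggrecanases, which cut the core protein of aggrecan. ADAMTS-like proteins share the repeats and lack the protease domain, and TIMPs are small secreted proteins that block the active site of MMPs and of some ADAMTS enzymes. In cartilage, loss of aggrecan and of type II collagen through these enzymes is a hallmark of osteoarthritis.

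The deleted microRNA is shown because its seed, bases 2 to 8 in capitals, defines the site that was looked for in the members. RefSeq (GRCm38.p6) gives its mature form on chromosome 4, plus strand.
mmu-miR-34a-5p: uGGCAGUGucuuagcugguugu
A match to the whole seed, CACTGCC, was present in the longest annotated 3′ UTR of 2 of the 25 members (8.0%), against 17.91% of 9332 genes of the table. Both are shown with the bases around them, the site in capitals, from the transcripts of GENCODE M21 (mm10, plus strand), at chr2:155816116-155816144 for Mmp24 and chr1:171259296-171259324 for Adamts4.
Mmp24 site: gcagctctagcCACTGCCcactggggcca
Adamts4 site: tctgcctgcctCACTGCCccaaaccgcag
The means of these 2 genes were not higher in KO, as given with their values, and the other 23 members hold no such letters in that UTR.

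The values are TMM-normalized CPM, read counts scaled by the authors to library size, and whole reads could be recovered from them. The libraries held 1136278 to 1772185 reads in KO and 947081 to 1227052 in WT outside 3 abundant genes (Rn45s, Lars2 and Mir6236), of which the members took 8065 to 17268 in KO and 5382 to 8574 in WT. Rn45s, a ribosomal RNA precursor, took 59.1% of all reads of WT 1. The chondrocyte genes Col2a1, Acan and Sox9 had reads in 6 of 6 libraries. Mir34a has no row to check the genotype labels with. Whether the 3 samples of a genotype are separate animals or cultures is not said in the labels, and the p-values cover the spread between samples, which may be technical. How the counting treated strand is not stated in these sources. Tsix, the antisense partner of Xist, had 8.12 to 12.8 times the CPM of Xist in KO libraries and 12.0 to 16.5 times in WT libraries. Exon bases opposite another gene are therefore given beside the members that have them, except 1 (7 of 25 have them, against 36.15% of 9797 genes), and reads of such genes cannot be told apart here. In bulk RNA, fewer cells of a type and less RNA per cell cannot be told apart either.

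No member passed the test across all genes. Log2 fold changes are KO against WT after adding 0.5 CPM to each value, so that changes of low genes come out too small, and were tested with limma over the whole table with Benjamini-Hochberg adjustment. At an adjusted p below 0.05, limma called 0 of the 25 members in either direction, against 0.00% of all genes higher in KO and 0.00981% lower. Mmp8 in KO and Adamtsl5 in WT lay under the table's floor in every library, so each passed the filter only through the genotype where it is high and had to differ. Their values are descriptions, and the lowest adjusted p of the other 23 was 0.283. At an unadjusted p below 0.05, 3 members were higher in KO (Timp2, Mmp13 and Mmp12), against 4.64% of all genes, and 4 were lower (Mmp8, Mmp3, Adamts1 and Mmp21), against 6.40%, or 3 without Mmp8. The count of higher members was 5 without WT 1 and 6 without WT 1 and KO 2, and the count of lower members was 2 without WT 3. The share of all genes at that p was not counted in these refits. Their counts therefore cannot be set beside 4.64% and 6.40%. DESeq2 on the recovered reads called Timp2 higher and Mmp3 lower (adjusted p = 0.0237 for each), against 0.666% and 2.00% of the 4056 genes it adjusted. It gave an adjusted p for 14 of the 25 members and none for the other 11. The quasi-likelihood test of edgeR called 0 members, against 0.00% of all genes higher and 0.0196% lower. The KO and WT libraries did not overlap for 7 members. Of these, 3 were higher in KO (Timp2, Mmp23 and Adamtsl5), against 8.82% of all genes, and 4 were lower (Mmp3, Mmp8, Adamts1 and Mmp21), against 9.57%. Without Mmp8 and Adamtsl5 these were 2 and 3. The 25 members had a median of −0.05 in log2, against 0.02 over all genes, with 11 members above 0 and 14 below.

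**Figure D1:**
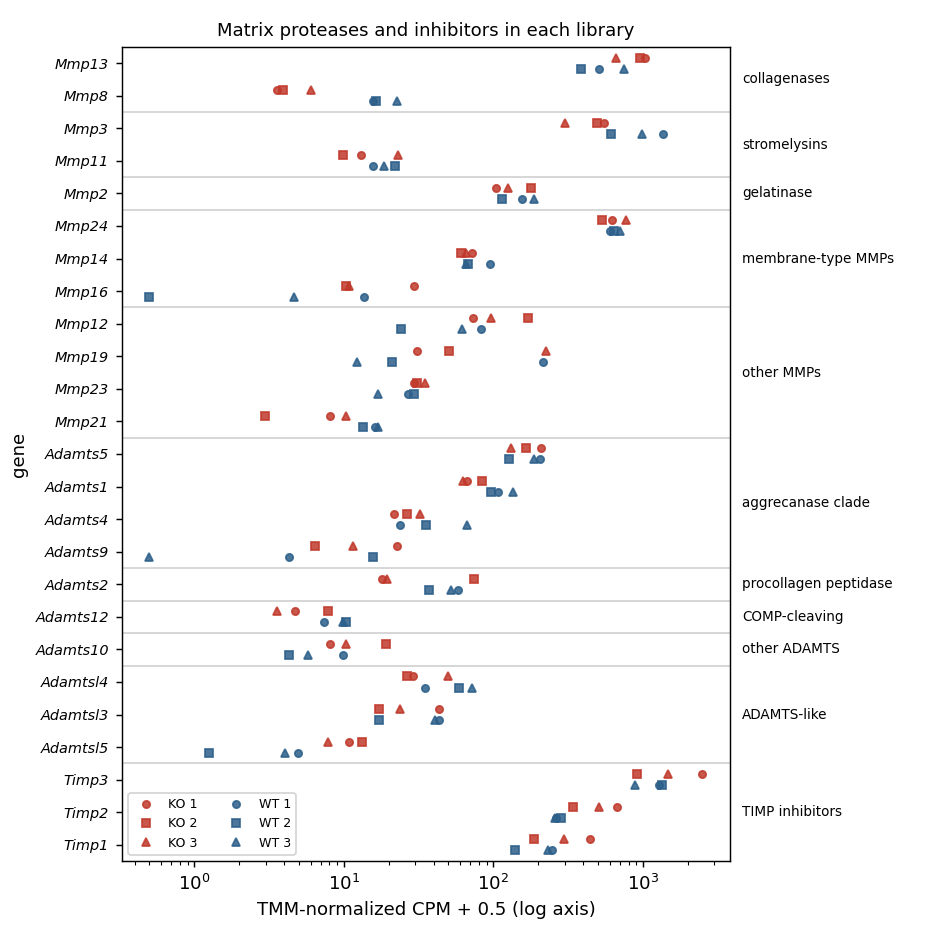
Level of each of the 25 members in each library, as TMM-normalized CPM + 0.5 on a log axis, with KO libraries in red above WT libraries in blue and rows grouped by role. Mmp8, Mmp3, Mmp21 and Adamts1 show all KO points left of all WT points, and Timp2, Mmp23 and Adamtsl5 the opposite order.

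**Figure D2:**
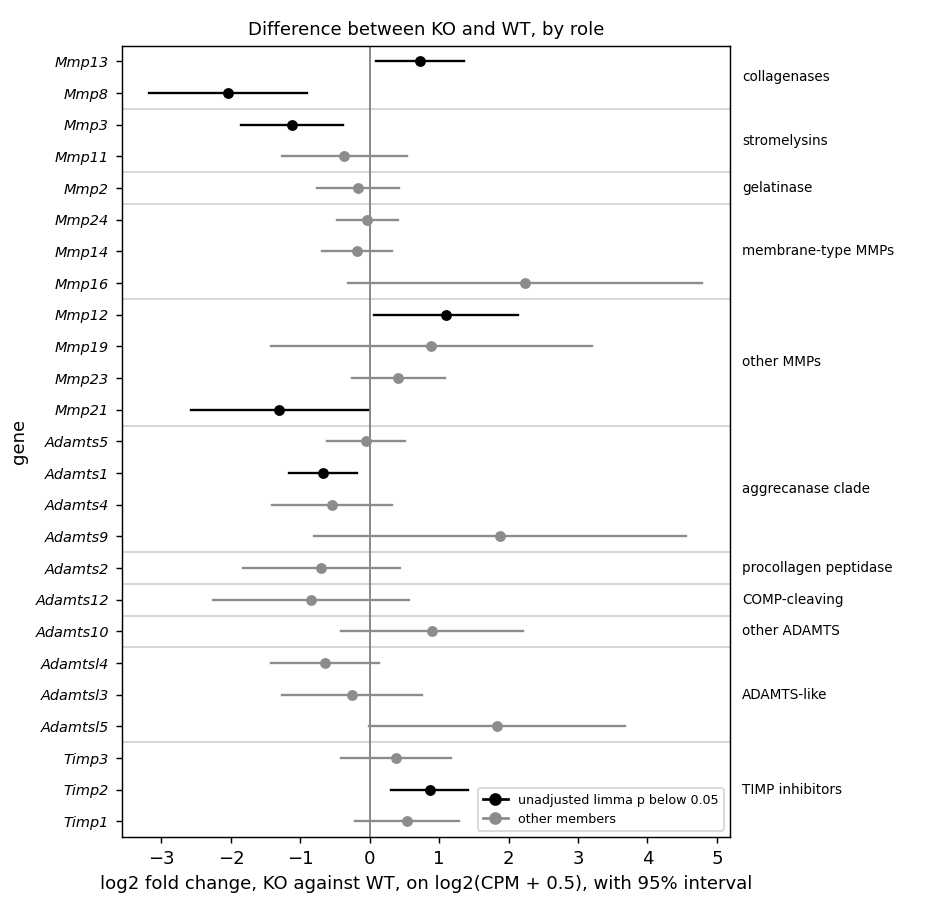
Log2 fold change of KO against WT for each member on the log2(CPM + 0.5) scale, with the 95% interval of limma as a line. The 7 members with an unadjusted p below 0.05 are black, and they lie on both sides of 0 within the MMP rows.

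Compared per length, which allows levels of different genes to be set beside each other, a few genes made up most of the RNA of the group. In KO, Timp1 had the highest mean level at 346 CPM per kilobase of exon, followed by Mmp13 at 329.8 and Mmp3 at 247. Their libraries overlapped, with 209 to 500.3 for Timp1, 247 to 386 for Mmp13 and 166 to 302 for Mmp3. In WT, Mmp3 came first at 548 CPM per kilobase, ahead of Timp1 at 232 and Mmp13 at 204. The lowest WT library of Mmp3, 338, was above the highest of Timp1, 278, and of Mmp13, 279. The main aggrecanase genes Adamts5 and Adamts4 had 15.5 and 5.46 CPM per kilobase in KO and 16.0 and 8.63 in WT. The lowest mean was that of Adamts12 in KO, at 0.446, and that of Adamts9 in WT, at 0.421.

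The classical collagenases cut the triple helix of fibrillar collagen, and 2 of the 4 were in the table. Mmp13, the main collagenase of cartilage and of hypertrophic chondrocytes, had 1030.5, 954 and 660.0 CPM in KO 1, 2 and 3, against 505, 382 and 746 CPM in WT 1, 2 and 3. The 2 highest libraries were KO and the 2 lowest WT, but KO 3 lay below WT 3. Mmp13 thus differed by 0.72 in log2 (SE 0.28, limma adjusted p = 0.394), between 0.50 without WT 2 and 0.98 without WT 3. Mmp8, the collagenase best known from neutrophil granules, had 3.05, 3.43 and 5.51 CPM in the KO libraries, against 15.1, 16.0 and 22.3 CPM in WT. All 3 KO libraries lay below all 3 WT libraries, on 7 to 9 reads each in KO and 21 to 38 in WT. The mean of Mmp8 on the log scale was 4.12-fold lower in KO (−2.04 in log2, SE 0.50), which is given with no test since every KO value lies under the lowest second highest value of any gene in the table, 7.35 CPM. The log2 values with any 1 library left out, −2.27 to −1.87, are likewise a description and no support, since the filter bears on them too. Of 12 neutrophil markers 3 were in the table: S100a8 and S100a9 had 0 reads in each KO library, against 17.0 to 25.9 and 36.9 to 51.5 CPM in WT, while Lcn2 had 71.0 to 214 CPM in KO and 101 to 315 in WT. Their summed level was 71.0 to 214 CPM in KO and 167 to 388 in WT, and the markers Ly6g, Mpo and Elane have no row. S100a8 and S100a9 also entered the table through WT alone. Their part in the Mmp8 difference was not tested.

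The stromelysins have a broad range of substrates, proteoglycans and other proenzymes among them. Mmp3, or stromelysin-1, which also activates procollagenases, had 544, 490.4 and 299.7 CPM in KO, against 1365, 609 and 987 CPM in WT. All KO libraries were below all WT libraries. The mean was 445 ± 128 CPM in KO and 987 ± 378 CPM in WT (SD, n = 3 each). Mmp3 was 2.17-fold lower in KO (−1.12 in log2, SE 0.33, limma adjusted p = 0.294), and the log2 value was −1.43 without WT 2 and −0.85 without WT 1. DESeq2 gave −1.13 with an adjusted p of 0.0237. Markers of mural cells, 7 of 9 in the table, also had a lower summed level in each KO library. They summed to 274, 484 and 342 CPM in KO 1, 2 and 3, against 684, 732 and 572 CPM in WT 1, 2 and 3. KO 1, lowest in the markers, had the most Mmp3 of the KO libraries. WT 2, highest in the markers, had the least Mmp3 of the WT libraries. At an unadjusted limma p below 0.05, 5 of the 7 markers were lower in KO (Acta2, Tagln, Cnn1, Myh11 and Lmod1), against 6.40% of all genes. Among them, Tagln has 1349 exon bases opposite Pcsk7 and Gm48529, whose reads cannot be told apart here. Cspg4 was higher at such a p (log2 fold change 1.12, SE 0.34), against 4.64% of all genes, while Pdgfrb differed by 0.81 (SE 0.47). Limma and edgeR called 0 of the 7. DESeq2 called 1 of the 3 it adjusted, Acta2, lower in KO (adjusted p = 0.0173), against 2.00% of the genes it adjusted. The part of these markers in the Mmp3 difference was not tested. Mmp11, stromelysin-3, had 9.31 to 22.6 CPM in KO and 15.1 to 21.3 CPM in WT, which overlap (log2 fold change −0.37, SE 0.40, and −0.09 without KO 2). It shares 155 exon bases with Chchd10 on the opposite strand.

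Mmp13, Mmp12, Mmp3 and Mmp8 are the 4 measured genes of a cluster of 10 Mmp genes on chromosome 9 (RefSeq GRCm38.p6, 7272514 to 7699585). In GENCODE M21 (mm10) all 4 lie on the plus strand, Mmp13 at 7272514 to 7283331, Mmp12 at 7344381 to 7369499, Mmp3 at 7445822 to 7455975 and Mmp8 at 7558456 to 7568485. They did not differ in the same direction: Mmp13 and Mmp12 had higher means in KO, and Mmp3 and Mmp8 lower. The ratio of Mmp13 to Mmp3 within a library, which no scaling of libraries can alter, was 1.89, 1.95 and 2.20 in KO 1, 2 and 3, against 0.370, 0.627 and 0.756 in WT 1, 2 and 3. Every KO library had more Mmp13 than Mmp3 CPM and every WT library less. Per kilobase of exon the ratio was 1.28 to 1.48 in KO and 0.249 to 0.509 in WT. This pair was chosen after its values were seen, so the ratio is a description with no test. Mmp12, macrophage elastase, had 72.9, 170.5 and 96.0 CPM in KO, against 81.7, 23.6 and 61.0 CPM in WT. KO 2 was the highest, and KO 1 lay below WT 1. It differed by 1.10 in log2 (SE 0.46, limma adjusted p = 0.426), or by 0.58 without WT 2, and 157 of its exon bases lie opposite Mmp1b. The 15 macrophage markers, all in the table, summed to 1072, 15513 and 3667 CPM in KO 1, 2 and 3, against 5459.6 to 6362 CPM in WT. Lyz2 alone held 12165 CPM of the sum in KO 2. Of the 15, 2 had log2 fold changes above 0 and 13 below, with a median of −0.72. At an unadjusted limma p below 0.05, 0 were higher, against 4.64% of all genes, and 1 lower (Mrc1), against 6.40%. Mrc1 differed by −1.66 in log2 (SE 0.47, DESeq2 adjusted p = 0.0237). KO 2 was highest in Mmp12 and in the marker sum, whereas KO 1, lowest in that sum, had more Mmp12 than WT 2 and WT 3. The part of macrophages in the Mmp12 difference was not tested.

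**Figure D3:**
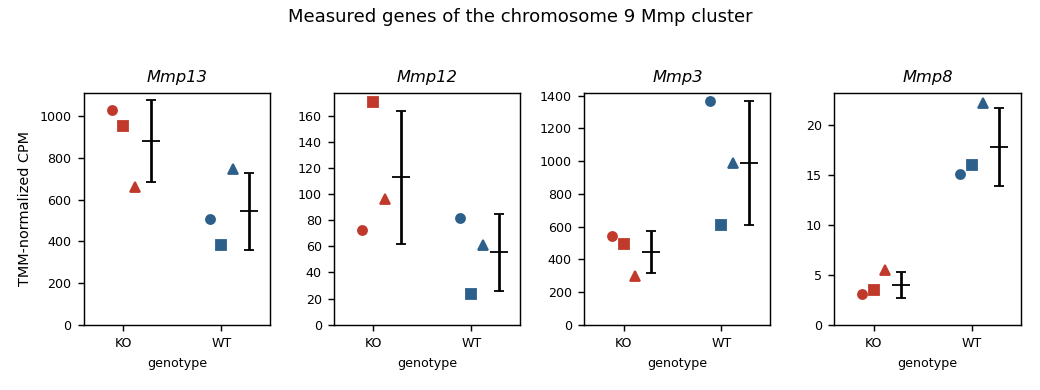
TMM-normalized CPM of the 4 measured genes of the chromosome 9 cluster in each library, KO left of WT, with circles, squares and triangles for libraries 1, 2 and 3 and the mean ± SD (n = 3) beside the points. Mmp13 and Mmp12 have higher means in KO with overlapping libraries, while all KO points of Mmp3 and Mmp8 lie below all WT points.

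The promoters of the cluster are shown because 3 of these 4 genes share a motif there. The motif is TGANTCA, the letters known for binding of AP-1, the Fos and Jun dimer that drives several Mmp genes in other systems. It reads the same on both strands, and it was searched from 250 bases before to 50 after each RefSeq start (GRCm38.p6). It was found in 3 of the 19 members that have such a window (15.79%), against 6.19% of 8114 genes of the table and 8.97% of 27025 RefSeq genes. All 3 were cluster genes, Mmp3, Mmp12 and Mmp13, with the first base of the motif 46, 44 and 35 bases before the start. For Mmp12 it stood before the second of 2 annotated starts. The window of Mmp8 holds no such letters. The motif is in capitals in the windows at chr9:7445572-7445871 (Mmp3), chr9:7347124-7347423 (Mmp12) and chr9:7272264-7272563 (Mmp13), all on the plus strand.
Mmp3: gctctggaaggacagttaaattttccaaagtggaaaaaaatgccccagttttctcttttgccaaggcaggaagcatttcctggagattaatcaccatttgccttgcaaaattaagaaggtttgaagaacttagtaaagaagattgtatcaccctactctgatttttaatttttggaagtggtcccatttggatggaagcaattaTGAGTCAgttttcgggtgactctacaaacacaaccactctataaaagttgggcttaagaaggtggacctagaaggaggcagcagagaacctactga
Mmp12: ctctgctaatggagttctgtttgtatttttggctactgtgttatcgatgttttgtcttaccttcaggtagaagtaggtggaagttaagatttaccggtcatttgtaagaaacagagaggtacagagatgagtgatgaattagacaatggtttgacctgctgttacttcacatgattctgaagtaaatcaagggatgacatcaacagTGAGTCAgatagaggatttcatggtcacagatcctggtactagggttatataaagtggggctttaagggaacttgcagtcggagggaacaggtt
Mmp13: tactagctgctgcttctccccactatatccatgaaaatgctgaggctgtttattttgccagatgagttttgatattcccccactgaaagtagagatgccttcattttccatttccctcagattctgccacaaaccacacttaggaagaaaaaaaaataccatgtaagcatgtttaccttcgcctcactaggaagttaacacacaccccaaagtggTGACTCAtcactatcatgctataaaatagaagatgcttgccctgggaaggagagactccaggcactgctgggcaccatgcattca
A match of letters is not a shown binding site. Mmp3, Mmp12 and Mmp13, which hold it, had log2 fold changes of −1.12, 1.10 and 0.72 (limma adjusted p = 0.294, 0.426 and 0.394). The part of AP-1 in these values was not tested.

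The gelatinase and the 3 membrane-type MMPs in the table had libraries that overlapped between genotypes. Mmp2, the gelatinase of connective tissue, had 104 to 178 CPM in KO and 114 to 186 CPM in WT, and the 95% interval of its log2 fold change ran from −0.75 to 0.42. Mmp14, the membrane-type enzyme that activates pro-MMP2, had 59.8 to 71.8 CPM in KO and 65.1 to 94.9 CPM in WT, with an interval of −0.69 to 0.32. Mmp24, a membrane-type MMP known from neurons, had 529 to 770.1 CPM in KO and 603 to 699 CPM in WT and was the steadiest member, with an interval of −0.48 to 0.41. It shares 637 exon bases (13.6%) with BC029722 on the opposite strand, which had 15.3 to 24.5 CPM in KO and 3.81 to 14.7 CPM in WT. The direction of Mmp24 was not fixed: −0.03 in log2 with all libraries, 0.10 without KO 2 and 0.02 without WT 3. Mmp16, another membrane-type gene, had 29.0, 9.80 and 10.4 CPM in KO, against 13.2, 0 and 4.10 CPM in WT. The 0 of WT 2 allows up to 2.29 CPM (3 reads, counting error only), and the libraries overlap (log2 fold change 2.24, SE 1.13, limma adjusted p = 0.493). The value was 0.91 without WT 2 and 3.30 without WT 1.

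Of the MMPs outside these classes, Mmp21 had 7.63, 2.45 and 9.79 CPM in KO, against 15.7, 13.0 and 16.4 CPM in WT. The KO libraries were all lower, on 5 to 20 reads each. The difference was −1.30 in log2 (SE 0.57, limma adjusted p = 0.447), and −0.76 without KO 2. Mmp23, a membrane-anchored MMP of unusual structure, had 29.0, 30.4 and 34.3 CPM in KO, against 26.4, 29.0 and 16.4 CPM in WT. The libraries did not overlap, but KO 1 and WT 2 were nearly equal, and the difference was 0.41 in log2 (SE 0.30, limma adjusted p = 0.603), or 0.17 without WT 3. Mmp19, a secreted MMP with a wide range of substrates, had 30.5, 49.97 and 224 CPM in KO and 215, 20.6 and 11.7 CPM in WT. KO 3 and WT 1 stood apart from the other 4 libraries, and the log2 fold change of 0.89 (SE 1.03) was 0.05 without KO 3 and 2.14 without WT 1. Of its exon bases, 1001 (28.3%) lie opposite other genes, mainly Tmem198b, which had 405 to 731 CPM in KO and 526 to 682 CPM in WT.

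The aggrecanase clade of ADAMTS enzymes cuts aggrecan, versican and related proteoglycans, and 4 of its 7 genes were in the table. Adamts5, the main aggrecanase of mouse cartilage, had 206, 164 and 129.7 CPM in KO, against 205, 127 and 186 CPM in WT. The genotypes covered the same range. The difference was −0.05 in log2 (SE 0.25, limma adjusted p = 0.954), with a 95% interval of −0.61 to 0.51, and it was 0.12 without KO 3, 0.09 without WT 1 and 0.02 without WT 3. Adamts4, the other main aggrecanase, which holds the seed match shown above, had 21.0, 26.0 and 31.8 CPM in KO and 23.2, 35.0 and 66.3 CPM in WT. The difference was −0.54 in log2 (SE 0.38, limma adjusted p = 0.601) and −0.14 without WT 3. Adamts1, a versican-cutting enzyme of the clade, had 65.6, 83.3 and 61.8 CPM in KO, against 107, 95.2 and 134 CPM in WT. Every KO library was lower than every WT library. This came to −0.67 in log2 (SE 0.22, limma adjusted p = 0.323), between −0.80 and −0.54 over the leave-outs. Adamts1 and Adamts5 lie next to each other on the minus strand of chromosome 16, with 53059 bases between them. The within-library ratio of Adamts5 to Adamts1 was 3.15, 1.97 and 2.099 in KO, against 1.91, 1.34 and 1.39 in WT, also a pair chosen after its values were seen. Adamts9, a widely expressed member of the clade, had 22.1, 5.88 and 11.01 CPM in KO, against 3.77, 15.2 and 0 CPM in WT, where the 0 of WT 3 allows up to 1.76 CPM. Its libraries overlap (log2 fold change 1.88, SE 1.19), the value was 0.53 without WT 3, and 1805 of its exon bases lie opposite other genes.

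The other ADAMTS genes had overlapping libraries. Adamts2, which removes the N-terminal propeptide of fibrillar procollagens, had 17.6, 73.5 and 19.0 CPM in KO, against 57.2, 36.6 and 51.6 CPM in WT. KO 2 was above all WT libraries and KO 1 and KO 3 below them, and the difference of −0.70 in log2 (SE 0.50, limma adjusted p = 0.604) was −1.36 without KO 2. Adamts12, which can cut cartilage oligomeric matrix protein, had 3.06 to 7.35 CPM in KO and 6.91 to 9.90 CPM in WT. Adamts10, a fibrillin-binding enzyme, had 7.63 to 18.6 CPM in KO and 3.81 to 9.42 CPM in WT. Their log2 fold changes were −0.85 (SE 0.63) and 0.90 (SE 0.58). Among the ADAMTS-like genes, Adamtsl5 had 10.3, 12.7 and 7.34 CPM in KO, against 4.40, 0.762 and 3.52 CPM in WT. The KO libraries were all higher, on 12 to 27 reads against 1 to 7 in WT, a difference of 1.83 in log2 (SE 0.82), given with no test, that was 1.23 without WT 2. Since the table keeps only genes above a floor, a gene this low in WT entered it through its KO values. Adamtsl4, which binds fibrillin microfibrils, had 26.0 to 49.5 CPM in KO and 34.6 to 70.9 CPM in WT, and Adamtsl3 16.7 to 42.7 CPM in KO and 16.8 to 42.7 CPM in WT. Their log2 fold changes were −0.65 (SE 0.35) and −0.26 (SE 0.45), and Adamtsl3 was 0.04 without KO 2.

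The 3 measured TIMP genes all had higher means in KO. Timp2, an MMP inhibitor that also takes part in the activation of pro-MMP2, had 668, 342 and 506 CPM in KO, against 261, 283 and 259 CPM in WT. The lowest KO library was above the highest WT library, and the WT libraries lay close together. The mean was 505 ± 163 CPM in KO and 268 ± 13.6 CPM in WT (SD, n = 3 each). Timp2 was 1.82-fold higher in KO (0.86 in log2, SE 0.24, limma adjusted p = 0.283), and its log2 value lay between 0.64 without KO 1 and 1.12 without KO 2. DESeq2 gave 0.93 with an adjusted p of 0.0237. Timp2 lies on the minus strand of chromosome 11 (mm10, 118301069 to 118355740), with no exon opposite another gene. Timp1, an inducible secreted TIMP, had 444, 185 and 294 CPM in KO, against 247, 139 and 230.4 CPM in WT. KO 2 lay below WT 1 and WT 3, and the difference of 0.53 in log2 (SE 0.33, limma adjusted p = 0.565) was 0.23 without KO 1. Timp3, the TIMP bound to matrix that inhibits aggrecanases, had 2496, 912 and 1464 CPM in KO, against 1278, 1342 and 882 CPM in WT. KO 1 stood highest and the other 5 libraries overlapped. Its difference of 0.38 in log2 (SE 0.35, limma adjusted p = 0.683) was 0.01 without KO 1, and 1733 of its exon bases (21.3%) lie opposite Syn3, which had 89.7 to 139 CPM in KO and 119 to 199 CPM in WT. The 3 genes summed to 3608, 1439 and 2264 CPM in KO, against 1786, 1764 and 1371 CPM in WT. KO 1, the highest for each of them, also had the highest summed level of 12 chondrocyte markers (6691 CPM, against 3666 and 3873 in the other KO libraries and 2347 to 3611 in WT). Limma and edgeR called 0 of the 12 markers. At an unadjusted limma p below 0.05, 6 were higher in KO, against 4.64% of all genes, and 0 lower, against 6.40%. DESeq2 called 2 of the 8 it adjusted, Acan and Col11a2, both higher in KO, against 0.666% of the genes it adjusted. The part of these markers in the TIMP differences was not tested.

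**Figure D4:**
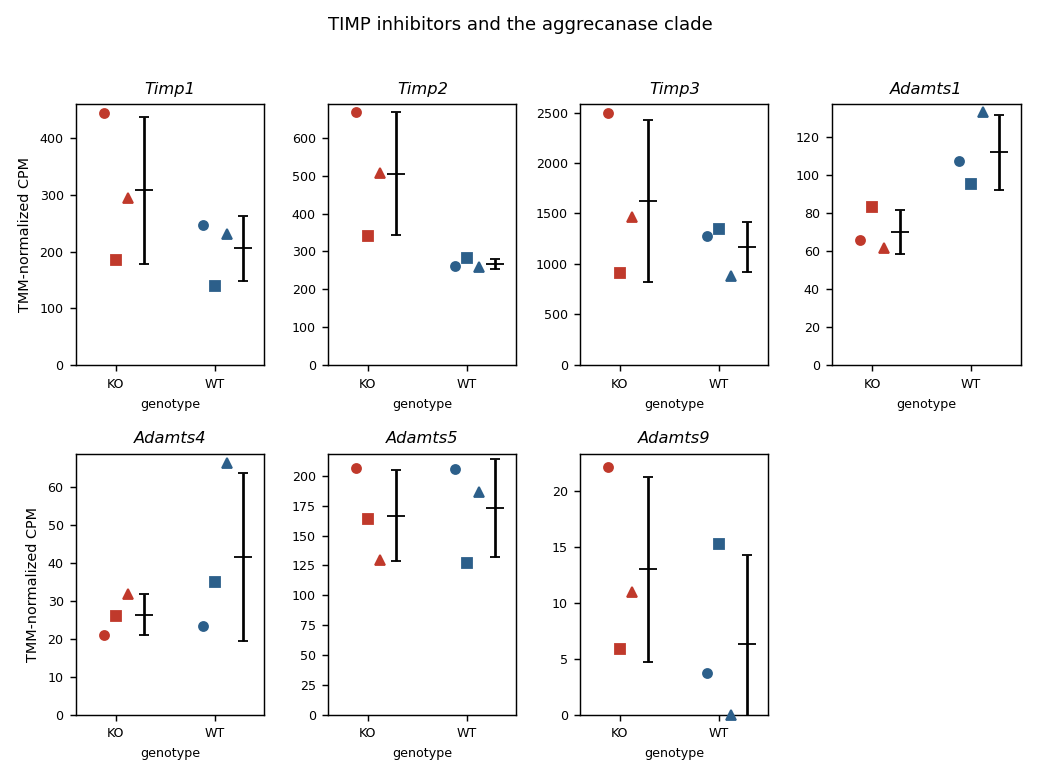
TMM-normalized CPM of the 3 TIMP genes and of the 4 measured genes of the aggrecanase clade in each library, KO left of WT, with circles, squares and triangles for libraries 1, 2 and 3 and the mean ± SD (n = 3) beside the points. KO 1 is the highest library for Timp1, Timp2 and Timp3, Timp2 and Adamts1 show no overlap between genotypes, and Adamts5 covers the same range in both.

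Proteins that act on these enzymes were described from lists drawn up by function. Of 15 other inhibitors and clearance factors, 10 were in the table, and limma and edgeR called 0 at the adjusted threshold. At an unadjusted limma p below 0.05, 3 were higher in KO, against 4.64% of all genes, and 1 lower, against 6.40%. DESeq2 called these 4, against 0.666% higher and 2.00% lower of the genes it adjusted. Reck, which encodes a membrane-anchored inhibitor of several MMPs, had 88.5, 48.5 and 52.0 CPM in KO, against 26.4, 6.86 and 14.7 CPM in WT. No KO library overlapped WT, a difference of 2.09 in log2 (SE 0.46, limma adjusted p = 0.273, DESeq2 adjusted p = 0.00663). Serpine2, a serpin that inhibits thrombin and plasminogen activators, had 601, 356 and 460.0 CPM in KO, against 292, 212 and 242 CPM in WT (log2 fold change 0.91, SE 0.23). Cst3, which encodes the cathepsin inhibitor cystatin C, had 239, 294 and 202 CPM in KO, against 157, 114 and 137 CPM in WT (0.84, SE 0.21). The limma adjusted p was 0.277 for Serpine2 and 0.273 for Cst3, and the DESeq2 adjusted p was 0.0154 for Serpine2 and 0.0237 for Cst3. The median of the 10 was 0.20.

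Of 16 genes whose products activate MMP or ADAMTS proenzymes, 12 were in the table, with a median log2 fold change of −0.22. Limma and edgeR each called 0. At an unadjusted limma p below 0.05, 2 were higher in KO, against 4.64% of all genes, and 0 lower, against 6.40%. Pcsk6, a proprotein convertase that can process aggrecanases, had 44.3, 22.0 and 38.5 CPM in KO, against 15.1, 11.4 and 12.3 CPM in WT, with no overlap (log2 fold change 1.35, SE 0.34, limma adjusted p = 0.277). Plat, tissue plasminogen activator, had 37.4, 27.4 and 22.0 CPM in KO, against 4.40, 3.81 and 22.3 CPM in WT, where WT 3 reached the KO range (1.88, SE 0.62, limma adjusted p = 0.324). DESeq2 called 0 of 7 activators and gave no adjusted p for the other 5, Pcsk6 and Plat among them. Of 25 transcription factors and other regulators tied to Mmp13 or Adamts5 expression, 19 were in the table. Fos has no row, whereas Jun, Junb, Jund, Fosl1 and Fosl2 do. Limma and edgeR each called 0 of the 19, and DESeq2 called 0 of the 12 it adjusted. At an unadjusted limma p below 0.05 there were 0, against 4.64% of all genes higher and 6.40% lower. Their log2 fold changes ran from −0.65 to 0.86 with a median of 0.01, 11 above 0 and 8 below. Jun, the lowest, had 21.4, 34.8 and 31.8 CPM in KO, against 39.0, 62.5 and 38.1 CPM in WT. Its libraries did not overlap (log2 fold change −0.65, SE 0.30, limma adjusted p = 0.467). Of 9 markers of hypertrophic chondrocytes, which typically express much Mmp13, 8 were in the table. At an unadjusted limma p below 0.05, 3 were higher in KO (Ibsp, Panx3 and Pth1r), against 4.64% of all genes, and 0 lower, against 6.40%. Limma and edgeR called 0 of the 8. DESeq2 called 1 of the 6 it adjusted, Ibsp, higher in KO (adjusted p = 0.000497), against 0.666% of the genes it adjusted. The libraries of the markers other than Ibsp, Panx3 and Pth1r overlapped between genotypes. Col10a1 differed by 0.31 in log2 (SE 0.39), Spp1 by 0.02 (SE 0.61) and Alpl by 0.54 (SE 0.39). Sp7 differed by 0.95 (SE 0.48) and Mef2c by −0.32 (SE 0.32). The part of hypertrophic markers in the Mmp13 difference was not tested.

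Across the 6 libraries, the members did not share 1 pattern. KO 1 was the highest library for 8 of the 25 members and WT 3 for 6, while WT 2 was the lowest for 7 and KO 2 for 6. KO 2 had the lowest level of the KO libraries for Timp1, Timp2 and Timp3 and the highest for Adamts2, Mmp12 and Mmp2. By role, the median log2 fold change was 0.53 for the 3 TIMPs (0.23 without KO 1), −0.29 for the 4 genes of the aggrecanase clade, −0.03 for the 3 membrane-type MMPs and −0.26 for the 3 ADAMTS-like genes, beside 0.02 for all genes. The 2 collagenases lay on opposite sides of 0 and the 2 stromelysins both below it.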

How the data were processed

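Each deposited value is the signal of a gene in a library: the authors scaled read counts to TMM-normalized CPM and filtered low genes, per the name of the deposited table. Per the submitters' processing notes, the build was mm10 and the tools were HISAT2 2.1.0, StringTie 1.3.5, cutadapt 1.18, bcl2fastq and edgeR. What each did, the annotation and the strand setting were not given in the sources used here. All values (100%) fell within 0.001 of a multiple of the library's smallest value, so that reads could be recovered. TMM scaling lets the CPM of a library sum to more than plain CPM, which the design had assumed. The same log-scale test was used. In each row the second highest value was at least 7.35 CPM. Of the column names, 1 differed from its sample's title by 1 character, and 0 columns were left unmapped.

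The 3 KO and 3 WT samples were tested for a difference in log2(CPM + 0.5) by limma 3.58.1 in R 4.3.3, with an intensity trend and Benjamini-Hochberg adjustment over all genes, two-sided. Recovered reads were tested with edgeR 4.0.16, DESeq2 1.42.0 and limma-voom. The members, roles and lists were chosen with earlier results of these data known. All members are reported, in full for collagenases, the aggrecanase clade, TIMPs and members with an unadjusted p below 0.05, and from each list on activators, inhibitors and regulators up to 4 genes with such a p. Values of 1 listed gene and 1 overlap are not reported here. The neutrophil, mural, macrophage, chondrocyte and hypertrophic lists are given beside the genes they bear on. Of 9 osteoclast markers 2 and of 6 endothelial markers 2 were in the table, with 0 of each at an unadjusted p below 0.05. Coordinates, exon lengths and overlaps come from GENCODE M21 (mm10), promoters and the miRNA from RefSeq.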

Additional observations from a re-analysis of the deposited data

How the results depend on the processing

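Of 442 log2 fold changes of single members over 18 alternatives, 427 kept their direction and their side of the threshold. Only DESeq2 added calls, Timp2 (1 higher) and Mmp3 (1 lower). It gave no adjusted p for 11 low members, Mmp8 and Adamts4 among them. A case with no adjusted p was counted as not called, so its side of the threshold is not known. The sign turned in 13 cases among 5 genes near 0: Mmp24 (0.030 with the rescaling that leaves out Rn45s, Lars2 and Mir6236, 0.045 without WT 1 and KO 2, and −0.18 to 0.095 over single leave-outs), Adamts5 (0.014, 0.087, and −0.26 to 0.12), Mmp14 (0.053 without WT 1 and KO 2), Mmp2 (−0.38 to 0.0063 over single leave-outs) and Adamtsl3 (0.28 without WT 1 and KO 2, and −0.68 to 0.043). The cause was not tested.

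Counts of all genes higher and lower were 0 and 2 with a pseudocount of 2 CPM, 7 and 3 without trend, 1 and 3 with robust empirical Bayes, 0 and 2 with edgeR, 27 and 81 with DESeq2, 0 and 2 without WT 1 and KO 2, and 0 to 7 and 0 to 25 over single leave-outs. Members at an unadjusted p below 0.05 numbered 6 higher without WT 1 and KO 2, 2 lower among genes of at least 20 CPM (fewer genes tested), and 2 to 5 higher and 2 to 5 lower over single leave-outs. The share of all genes at that p was not counted under these settings, so these member counts have no background to be read against. With at least 20 CPM the median log2 fold change was 0.72 for collagenases (Mmp13 alone), −1.12 for stromelysins (Mmp3 alone) and −0.54 for the aggrecanase clade. Without WT 1 and KO 2 it was 1.01 for TIMPs and −1.31 for Adamts12. Over single leave-outs it was 0.23 (without KO 1) to 0.86 (without KO 2) for TIMPs, 0.12 to 0.99 for the other MMPs and −0.42 to −0.060 for the aggrecanase clade. A replicate block gave 0 genes higher and 0 lower and called no member. Same-numbered libraries did not deviate together (r across genes −0.06 to 0.07). This shows no pairing by number but cannot exclude it, since the deviations also hold the spread of single libraries. For members on few reads, such as Mmp8, depth limits the precision.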
